A study of Bos taurus with 48 samples.

Results

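Muscle of cattle fed for weight loss was followed from the first sampling, labelled diet time 0, to the next, labelled diet time 1. The samples were chosen by their labels: every microarray channel of the diet arrays that held RNA of an animal on the weight loss diet (called restricted here) at times 0 and 1. That gave 8 of the 96 channels of the series, on 8 of its 48 arrays, from 4 Belmont Red animals, coded RL27, RL24, RL322 and RL671. The other channel of each of those arrays held RNA of an animal on the weight growth diet, from 4 animals coded RG166, RG604, RG157 and RG208. All samples were biopsies of the longissimus muscle, a large muscle of the back, from which total RNA was taken. The study's methods call the samplings adult time points of an experiment of feed deprivation and refeeding. They do not say at which of the times the animals had been refed. The exact age and the sex of the animals and the days between the samplings were not given in the sources used here, and nothing was said of pooling.

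RL27, RL24 and RL671 were sampled at both times and form 3 pairs. RL322 was on an array at time 0 alone, and RL24 was on 2 arrays at time 1, whose values over 14463 genes correlated at 0.9992 and were averaged as 1 sample. The 4 arrays of time 0 lie on 1 slide and the 4 arrays of time 1 on another, each slide scanned in its own run on the same day, so a change within the restricted animals cannot be told apart from a difference between slides. Every animal also changed its dye between the times. The restricted change is therefore given with the dye effect removed, and the change relative to the growth animals on the same arrays, which share the slide, is given after it.

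Skeletal muscle is the body's main store of protein. When feed is short, muscle can release amino acids through the ubiquitin-proteasome pathway, in which ubiquitin ligases tag proteins and the proteasome degrades them, while hormones of the growth hormone and insulin-like growth factor axis set the rate of synthesis. Muscle burns glucose through glycolysis and fatty acids in mitochondria. Its fibres are held in a matrix of collagens made by fibroblasts, and fat cells lie between the fibre bundles.

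Between 60.3% and 66.6% of the probes were well above background in the restricted channels at time 0, against 66.8% to 69.2% at time 1, and in the growth channels the range went from 60.1% to 69.8% up to 65.9% to 75.5%. The part of this rise in the changes below was not tested. The 11 muscle fibre markers on the array, among them ACTA1, CKM, MB and TTN, were well above background in all 8 restricted channels. On the first principal component, which held 30.4% of the variance over 15 samples of both diets, the 3 restricted samples of time 1 lay between 33.5 and 54.8 and the other 12 samples between -31.0 and 11.7. RL322 and RL24 at time 0, at 11.7 and 8.19, were the samples nearest to them on that axis, and RL27 and RL671 at time 0 lay at -24.0 and -12.6. In a biopsy, fewer cells of a type and less RNA per cell cannot be told apart, which holds for every gene below that one cell type expresses. Values below are log2 intensities with the dye effect removed, and changes are differences of log2 values with the standard error of the fit. Levels of different genes are not comparable, since each gene has its own probe.

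Of the 14463 genes tested, 711 changed from time 0 to time 1 in the restricted animals (limma, Benjamini-Hochberg adjusted p under 0.05), which is 4.92% of the genes, with 419 rising (2.90%) and 292 falling (2.02%). At an unadjusted p under 0.05 there were 4060 genes, and the median change over all genes was 0.03. All 711 genes moved the same way in the 3 animals, as did 55.0% of all genes tested. The change exceeded 1 on the log2 scale, in either direction, for 259 of the called genes and 2 for 29 of them. The growth animals, tested in the same fit over the same slides with 4 pairs, gave 25 calls, or 0.173% of the genes, and 4 of the 711 genes were among them. The number of calls rested on the animals in the fit. It was 16 without RL27, 361 without RL24 and 3 without RL671, and 13, 38 and 12 without growth animals RG166, RG157 and RG208, which lend the fit their spread. It was 8 with the restricted animals alone and no dye term. Most calls of single genes and the counts by list given below share this limit. No named gene past the threshold changed its direction in any alternative. Since every called gene moved the same way in the 3 animals, leaving 1 of them out could hardly turn it.

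RL322 did not enter the change, since it has no pair. At time 0 its value lay nearer the mean of the paired animals at time 1 than their mean at time 0 for 283 of the 711 genes (39.8%), and for 10 of the 24 genes named next. The share over all genes was not counted. Among the called genes, 533 (75%) had no overlap between all 4 values of time 0, RL322 included, and the 3 values of time 1, against 21.6% of all genes tested. The genes were called on the values of the 3 pairs, so a higher share among them follows largely from the choice.

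The largest fall with a small spread was in ACTA1, the gene of skeletal muscle alpha-actin, the main protein of the thin filament. Its level in RL27, RL24 and RL671 was 16.79, 16.39 and 16.31 at time 0 and 12.32, 11.69 and 12.46 at time 1, and it was 16.94 in RL322 at time 0. All 4 samples of time 0 lay above all 3 of time 1. The change was -4.34 ± 0.20 (limma adjusted p = 0.000839). MYL3, a myosin light chain of slow fibres and heart, stood at 16.15, 15.93 and 16.13 at time 0 and 11.75, 12.12 and 12.51 at time 1, with no overlap. It changed by -3.94 ± 0.17 (limma adjusted p = 0.000839). The array lists the MYL3 probe and the probe of MYL1, a fast light chain, under the same transcript record with different gene descriptions. Which light chain each probe reads was not tested. ACTA1 and MYL3 were the only named genes whose change in the restricted animals stayed past the threshold in all 23 alternative analyses, each left-out animal included.

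METTL21E, a protein lysine methyltransferase of skeletal muscle, fell from 10.88, 10.90 and 9.06 at time 0 to 7.95, 8.32 and 6.51 at time 1, a change of -2.69 ± 0.19 (limma adjusted p = 0.00462). RL322, at 8.81, and RL671 were the lowest of time 0, and both lay above all samples of time 1. TFRC, the transferrin receptor that brings iron into cells, was at 12.02, 12.90 and 10.77 at time 0 and 8.12, 9.43 and 8.001 at time 1. It fell in every pair, with a change of -3.38 ± 0.23 (limma adjusted p = 0.00386), although RL322 at 9.41 and RL24 of time 1 were nearly the same. Its 2 probes gave -4.27 and -2.49. DNAJA4, a co-chaperone of Hsp70, stood at 13.27, 13.24 and 13.06 at time 0 and 10.62, 11.24 and 10.87 at time 1, with no overlap, and changed by -2.28 ± 0.18 (limma adjusted p = 0.00541).

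The array measures each gene by 60-base probes, and 3 of them are shown for genes on which the results turn, so that a reader can see what was hybridised. Each printed sequence has at least 1 reading frame without a stop codon along its whole length. METTL21E is among the 12 largest falls, MYH1 encodes a fast myosin heavy chain from a family of closely similar genes, and NDUFB5 encodes a subunit of complex I that had the smallest p among the respiratory chain genes. Cross-reaction of probes within a gene family was not tested.
METTL21E probe: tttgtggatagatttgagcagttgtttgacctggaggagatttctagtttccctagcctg
MYH1 probe: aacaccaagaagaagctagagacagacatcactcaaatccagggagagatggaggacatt
NDUFB5 probe: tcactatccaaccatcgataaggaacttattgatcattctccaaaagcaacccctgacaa
The MYH1 probe printed changed by -0.59 ± 0.17 and the other MYH1 probe by -0.71 ± 0.15.

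**Figure D1:**
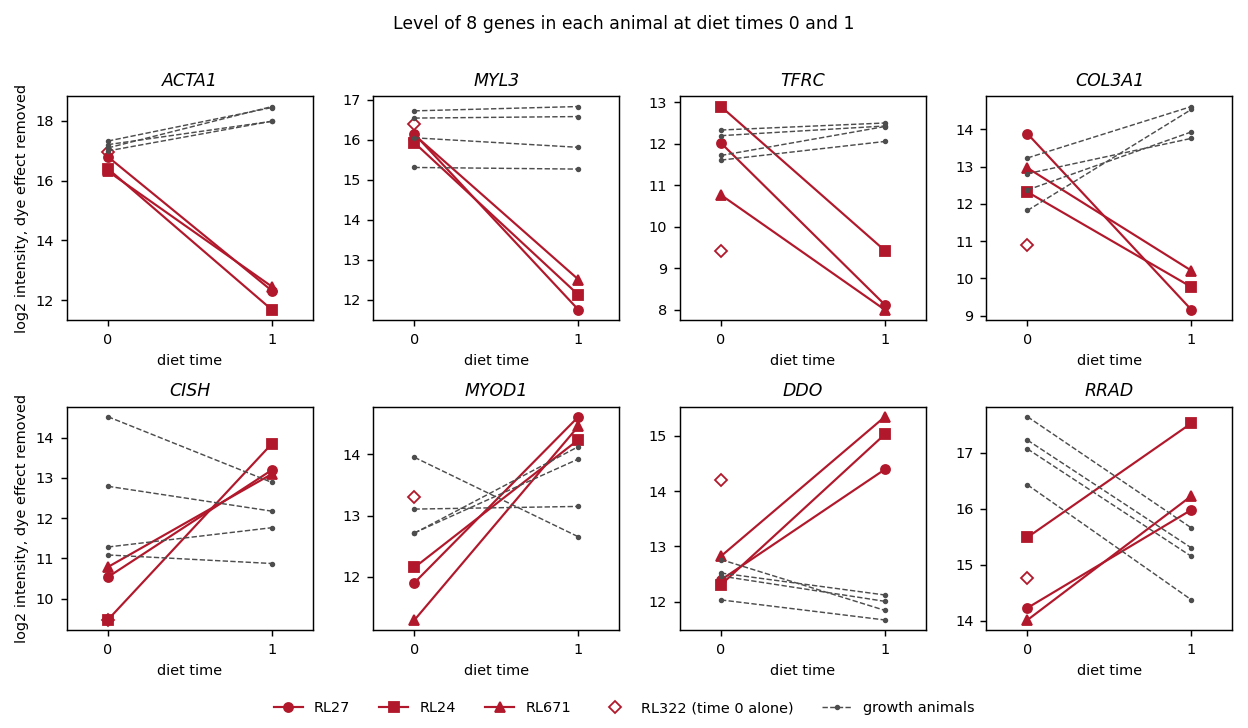
Log2 intensity with the dye effect removed (vertical axis) of 8 genes at diet times 0 and 1 (horizontal axis). Red lines join the 2 values of each restricted animal, the open diamond is RL322, and grey dashed lines are the 4 growth animals. The restricted lines of ACTA1 fall to 11.69 to 12.46 while the growth lines rise, and RRAD moves in opposite directions in the 2 diets.

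Both collagens among the largest falls had a wide spread. COL1A1, a chain of type I collagen, was at 16.82, 13.32 and 15.72 at time 0 and 10.32, 9.98 and 11.56 at time 1, and COL3A1, the chain of type III collagen, at 13.88, 12.32 and 12.96 at time 0 and 9.16, 9.77 and 10.21 at time 1. COL1A1 changed by -4.67 ± 0.88 (limma adjusted p = 0.0407) and COL3A1 by -3.34 ± 0.49 (limma adjusted p = 0.03). RL27 had the highest value of both at time 0 and the largest fall. RL322 at time 0 had 11.70 and 10.89, closer to the values of time 1 than to those of the paired animals at time 0.

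The other 5 of the 12 largest falls were CST6, an inhibitor of cysteine proteases, DHDH, a dihydrodiol dehydrogenase, SULT2B1, a sulfotransferase of sterols, FRZB, a secreted inhibitor of Wnt signalling, and SPP2, a secreted phosphoprotein. CST6 was at 15.94, 16.38 and 14.68 at time 0 and 13.12, 13.58 and 13.09 at time 1 and changed by -2.40 ± 0.33 (limma adjusted p = 0.0256). DHDH, SULT2B1, FRZB and SPP2 changed by -2.24 ± 0.25, -2.20 ± 0.31, -2.32 ± 0.40 and -2.43 ± 0.51. In RL27, RL24 and RL671 the changes of FRZB were -2.93, -1.24 and -2.80, and those of SPP2 were -3.70, -1.36 and -2.21, so the size differed between animals more than for ACTA1 or MYL3. The times overlapped for TFRC and FRZB, each through RL322 at time 0 and RL24 at time 1, and for none of the other 10 falls.

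Of the 12 largest rises, the one with the smallest standard error was in RRAD, a small GTPase that holds back voltage-gated calcium channels. It stood at 14.23, 15.49 and 14.01 at time 0 and 15.98, 17.53 and 16.23 at time 1, and changed by 2.00 ± 0.13 (limma adjusted p = 0.00345). RL24 was the highest of the 3 animals at both times. APCDD1, a membrane inhibitor of Wnt signalling, was at 11.74, 12.11 and 11.80 at time 0 and 14.06, 14.04 and 13.92 at time 1 and changed by 2.12 ± 0.14 (limma adjusted p = 0.00345). DDO, the peroxisomal enzyme that oxidises D-aspartate, was at 12.39, 12.30 and 12.82 at time 0 and 14.39, 15.03 and 15.35 at time 1 and changed by 2.42 ± 0.19 (limma adjusted p = 0.00541). For DDO, RL322 at 14.21 was near the values of time 1.

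CISH had the largest rise. It encodes an SH2 protein that is switched on by STAT5 and damps signalling by growth hormone and cytokines. Its level was 10.54, 9.48 and 10.79 at time 0 and 13.20, 13.85 and 13.10 at time 1, and it changed by 3.12 ± 0.50 (limma adjusted p = 0.0319). RL322 at time 0, with 9.47, was as low as RL24, and the times did not overlap. MYOD1, a transcription factor that commits cells to the muscle lineage, was at 11.91, 12.15 and 11.30 at time 0 and 14.61, 14.24 and 14.46 at time 1. It changed by 2.65 ± 0.52 (limma adjusted p = 0.043), and RL322 at 13.30 lay between the times. CHRND, the delta subunit of the acetylcholine receptor at the junction of nerve and muscle, was at 8.06, 9.02 and 8.46 at time 0 and 11.27, 11.08 and 10.62 at time 1 and changed by 2.48 ± 0.30 (limma adjusted p = 0.0227).

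CDKN1A, the cell cycle inhibitor p21, was at 12.04, 11.33 and 13.96 at time 0 and 15.41, 13.28 and 15.15 at time 1 and changed by 2.17 ± 0.41 (limma adjusted p = 0.0407). It was one of the genes whose times overlapped, since RL671 of time 0 was above RL24 of time 1. The same held for FAH, the last enzyme of tyrosine breakdown, through RL322, which stood at 12.64 at time 0. FAH and GCGR, the glucagon receptor, changed by 2.22 ± 0.37 and 2.65 ± 0.53 (limma adjusted p = 0.0321 and 0.0438). GCGR rose by 4.26 in RL27 but by 1.99 and 1.70 in RL24 and RL671. RAD51B, a protein of DNA repair, WDR62, a protein of the mitotic spindle poles, and RILPL1 changed by 2.26 ± 0.30, 1.92 ± 0.20 and 1.89 ± 0.33. The 2 probes of RILPL1 gave 1.47 and 2.30.

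**Figure D2:**
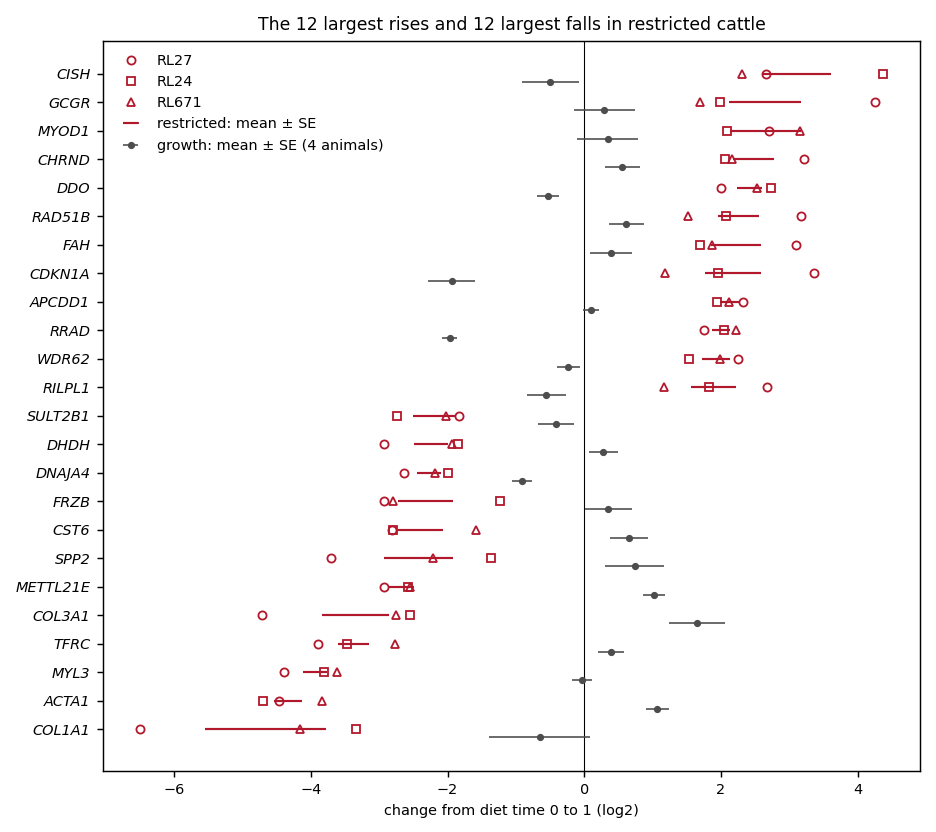
Change from diet time 0 to 1 on the log2 scale (horizontal axis) for the 12 strongest rises (top) and the 12 strongest falls (bottom) past the threshold. Red lines are the restricted mean ± SE, open symbols the 3 restricted animals, and grey points the growth mean ± SE over 4 animals. All open symbols of a gene lie on one side of 0, and the growth means of CDKN1A and RRAD lie on the other side, near -2.

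Lists of genes with a shared role were read by how many of their members were called and by their median, beside 419 rises and 292 falls among 14463 genes. A list holds the members that passed the filter on dim probes: 16 of the 20 collagens on the array, 44 of 54 cell cycle genes, 24 of 28 genes of antigen presentation and the interferon response, and all but at most 2 of every other list. A member that passed only through one time had a head start to differ, so no list was tested as a set.

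Few contractile genes were called beside ACTA1. Of 16 fast fibre genes tested, 3 fell, none rose and the median change was -0.48, beside 0.03 over all genes. MYL1, a fast light chain, was at 17.19, 17.10 and 17.17 at time 0 and 15.85, 15.72 and 16.26 at time 1 and changed by -1.21 ± 0.15 (limma adjusted p = 0.0227). MYH1, a fast myosin heavy chain, changed by -0.65 ± 0.12 and ATP2A1, the calcium pump of fast fibres, by -0.58 ± 0.12 (limma adjusted p = 0.0408 and 0.0471). Of 16 slow fibre genes, MYL3 and MYBPC1 fell and MYH7B rose, with a median of -0.26. MYBPC1, slow myosin-binding protein C, changed by -1.07 ± 0.17 and MYH7B, a myosin heavy chain, by 0.88 ± 0.18 (limma adjusted p = 0.0301 and 0.0472). MB, or myoglobin, stood at 17.43, 17.60 and 16.58 at time 0 and 16.26, 15.28 and 16.02 at time 1, and its change of -1.35 ± 0.40 missed the threshold (limma adjusted p = 0.0918). MYH7, the slow myosin heavy chain itself, named here after its value was seen, was at -0.0048 ± 0.28. DES, the intermediate filament desmin, rose by 1.22 ± 0.25 (limma adjusted p = 0.0462), by 0.46 in RL671 and by 1.72 and 1.48 in RL27 and RL24.

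Of 69 genes of the respiratory chain and the citric acid cycle, 15 fell and none rose, beside 2.02% falling among all genes, and 10 had a change above 0. Their median was -0.47, and it was -0.58, -0.42 and -0.29 in RL27, RL24 and RL671. NDUFB5, a subunit of complex I, was at 14.36, 14.54 and 14.00 at time 0 and 12.99, 13.69 and 13.08 at time 1 and changed by -1.05 ± 0.15 (limma adjusted p = 0.0276). UQCRFS1, the iron-sulfur protein of complex III, changed by -1.07 ± 0.16 and MDH2, mitochondrial malate dehydrogenase, by -0.89 ± 0.13 (limma adjusted p = 0.0301 and 0.0301). CYCS, the electron carrier cytochrome c, changed by -1.07 ± 0.22 and NDUFS1, the largest subunit of complex I, by -1.21 ± 0.21 (limma adjusted p = 0.0442 and 0.0332). The other 10 were DLD, COX7B, IDH3A, COX7A1, NDUFA5, ATP5MC1, ATP5PF, SUCLA2, MDH1 and COX6B1, with changes from -1.001 to -0.63.

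Of 30 genes of glycolysis and glycogen, 7 fell and none rose, with a median of -0.49. PGK1, phosphoglycerate kinase, was at 17.01, 16.56 and 15.75 at time 0 and 14.91, 14.03 and 14.53 at time 1 and changed by -1.95 ± 0.28 (limma adjusted p = 0.0276). LDHA, the muscle form of lactate dehydrogenase, was at 16.82, 17.22 and 15.99 at time 0 and 15.19, 14.99 and 15.09 at time 1 and changed by -1.59 ± 0.29 (limma adjusted p = 0.0376). Both had their largest fall in RL24. PHKA1 and PHKB, subunits of the kinase that switches on glycogen breakdown, changed by -1.49 ± 0.16 and -0.91 ± 0.17 (limma adjusted p = 0.0181 and 0.0404). PKM, pyruvate kinase, ALDOA, aldolase A, and PPP1R3A, a glycogen-targeting subunit of protein phosphatase 1, changed by -1.30 ± 0.20, -0.81 ± 0.17 and -0.55 ± 0.11. ALDOA had 1 saturated spot among the restricted channels.

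Of 40 genes of fatty acid oxidation and fuel choice, 1 fell, none rose, and the median was -0.29. It was FABP3, the fatty acid binding protein of muscle, at 12.83, 13.39 and 13.11 at time 0 and 11.97, 11.67 and 10.86 at time 1, with a change of -1.61 ± 0.27 (limma adjusted p = 0.0328). UCP3, a mitochondrial carrier of muscle, had changes of -0.37, -1.68 and -2.95 in RL27, RL24 and RL671 and did not pass (limma adjusted p = 0.0706). CPT1A and CPT2, which bring fatty acids into mitochondria, had values of -1.06 ± 0.30 and -0.57 ± 0.15 and did not pass either.

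Of 35 proteasome subunits tested, 6 rose, none fell, and 30 had a change above 0, with a median of 0.40 and medians of 0.52, 0.26 and 0.42 in RL27, RL24 and RL671. PSMD2, a subunit of the regulatory particle, was at 15.11, 15.02 and 15.38 at time 0 and 16.20, 15.92 and 16.07 at time 1 and changed by 0.90 ± 0.15 (limma adjusted p = 0.0328). PSMC5, an ATPase of the same particle, changed by 0.80 ± 0.13 and PSMA6, of the catalytic core, by 0.65 ± 0.12 (limma adjusted p = 0.0321 and 0.0393). PSMD3, PSMD1 and PSMD4 changed by 0.81 ± 0.16, 0.65 ± 0.13 and 0.52 ± 0.11.

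**Figure D3:**
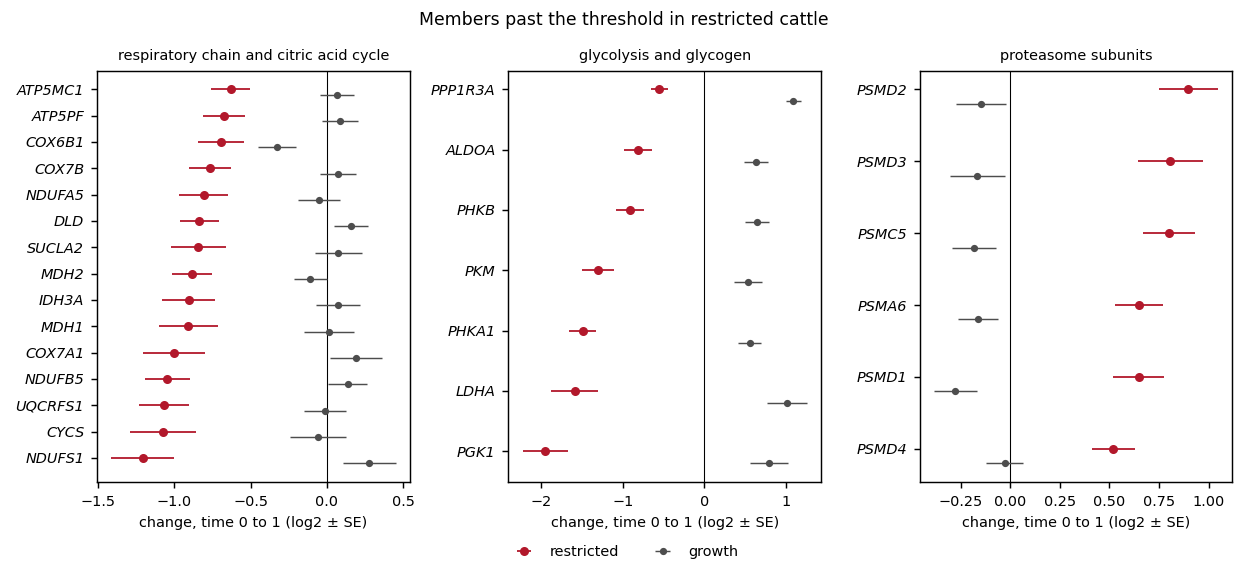
Change from diet time 0 to 1 on the log2 scale (horizontal axis, ± SE) of the members past the threshold among genes of the respiratory chain and citric acid cycle (15), glycolysis and glycogen (7) and proteasome subunits (6). Red points are the restricted animals and grey points the growth animals. All red points of the first and second panels lie below 0 and those of the third above 0, and the growth values of the glycolytic genes lie above 0.

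Of 34 genes of protein breakdown and FOXO targets, which share PSMD11 with the proteasome list, CDKN1A was the only one called, and the median was 0.21. CAST, the inhibitor calpastatin, CTSB, the protease cathepsin B, and EIF4EBP1, a repressor of translation that FOXO switches on, had changes of -0.83 ± 0.19, 0.58 ± 0.14 and 1.52 ± 0.38, none of them past the threshold (limma adjusted p = 0.06, 0.0641 and 0.0663). The muscle ubiquitin ligase genes FBXO32 and TRIM63, named after their values were seen, had changes of -0.39 ± 0.43 and 0.51 ± 0.38 (limma adjusted p = 0.58 and 0.406), with TRIM63 at 1.497, 0.39 and -0.37 in RL27, RL24 and RL671. Of 72 cytosolic ribosomal protein genes, RPS27A fell, with a change of -0.98 ± 0.21 (limma adjusted p = 0.0472), none rose, and the median was 0.07.

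Of 36 genes of growth hormone, IGF and myostatin signalling, CISH alone was called, and the median was 0.24. IGF1R, the IGF receptor, and STAT5A, which carries the growth hormone signal, had changes of 1.21 ± 0.31 and 0.89 ± 0.24, and IGFBP5, a binding protein of IGF, of -1.28 ± 0.31. None of the 3 passed (limma adjusted p = 0.0707, 0.0754 and 0.0625). Of 32 genes of amino acid stress and polyamines, ATF4 fell and none rose. Of the 32, 16 had a change above 0, and the median was 0.01. ATF4 encodes the transcription factor of the response to amino acid shortage. It was at 9.80, 10.41 and 9.47 at time 0 and 8.62, 8.47 and 8.01 at time 1. It changed by -1.53 ± 0.19 (limma adjusted p = 0.0227). PHGDH and PSAT1, enzymes of serine synthesis, had changes of -1.71 ± 0.47 and -1.30 ± 0.40 and did not pass (limma adjusted p = 0.0782 and 0.0987).

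Of 36 genes of lipid synthesis and fat cells, ACSS2, which makes acetyl-CoA from acetate, and SCD, which desaturates fatty acids, rose by 0.84 ± 0.12 and 0.83 ± 0.14 (limma adjusted p = 0.0301 and 0.0328). The 3 probes of SCD gave 0.20 to 1.17. FASN, fatty acid synthase, had 0.62 ± 0.18 and did not pass. CEBPA, a CCAAT enhancer binding protein, and FADS1, a fatty acid desaturase, had -0.76 and -1.27 and did not pass either. The median of the list was -0.02, and 18 of the 36 genes had a change above 0. Of 20 genes of cholesterol synthesis and uptake, MVD rose by 1.42 ± 0.21 (limma adjusted p = 0.0301) and none fell, while the median was -0.25.

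Of 17 genes of the circadian clock, BHLHE41, a repressor of the clock, and HLF, an output factor, fell, with changes of -1.21 ± 0.21 and -1.004 ± 0.19 (limma adjusted p = 0.0358 and 0.0407). The hours of sampling were not given in the sources used here. Of 44 cell cycle genes, MCM2, a subunit of the replication helicase, rose by 0.55 ± 0.11 (limma adjusted p = 0.0454) and none fell, although 40 had a change below 0 and the median was -0.45, at -0.95, -0.15 and -0.21 in RL27, RL24 and RL671. No gene was called among 31 heat shock proteins and chaperones (median 0.19), 17 glucocorticoid responsive genes (median 0.07) and 24 genes of antigen presentation and the interferon response (median -0.15).

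Genes of the matrix had some of the lowest medians but few calls. Of 16 collagen genes, COL1A1 and COL3A1 fell, none rose, and all 16 had a change below 0, with a median of -1.42 and medians of -2.10, -0.59 and -1.51 in RL27, RL24 and RL671. Of 46 other matrix genes, 44 had a change below 0 and the median was -1.09, but the only gene called was P4HB, an enzyme of collagen folding that most cells use, which rose by 0.92 ± 0.16 (limma adjusted p = 0.0328). FN1, fibronectin, SPARC, a collagen-binding protein, and SERPINH1, the collagen chaperone, had changes of -3.29 ± 0.73, -2.32 ± 0.56 and -2.42 ± 0.57, with adjusted p of 0.053, 0.0631 and 0.062 (limma).

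Levels of the markers of other cell types are given beside these changes, and their part in them was not tested. The summed level of 8 fibroblast markers, COL1A1 and COL3A1 among them, was 19150 to 162700 in the restricted animals at time 0 and 9489 to 16520 at time 1, on the linear intensity scale. All 4 samples of time 0 lay above those of time 1. Bright genes weigh most in a linear sum, and no sum without COL1A1 and COL3A1 was taken. In the growth animals the sums were 39710 to 144100 and 48030 to 162400, which overlap. MFAP5, DPT and PI16, which are fibroblast markers that are not collagens, had changes of -1.59 ± 0.39, -1.01 ± 0.27 and -2.02 ± 0.64 and did not pass. The sum of 7 fat cell markers was 2865 to 18770 at time 0 and 3781 to 4046 at time 1. The median change of those 7 was -2.70, 0.21 and -2.76 in RL27, RL24 and RL671, so RL24 went against the others, and LEP, which defines fat cells, was not well above background in any of the 8 restricted channels.

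The sum of 13 leukocyte markers was 16310 to 43660 at time 0 and 8857 to 22740 at time 1, with a median change of -0.55 and no gene called. The 9 endothelial markers had a median change of -0.0031 and sums of 30950 to 46190 and 28140 to 36520. The 8 markers of smooth muscle and pericytes had sums of 66440 to 140200 and 157900 to 216000, with DES, which muscle fibres also express, the only gene called, and a median change of -0.32. The 5 satellite cell markers had sums of 10890 to 20190 and 25660 to 31130, MYOD1 was the only gene called, and the median change was -0.40. MYF5 and NCAM1, in the same list, were well above background in 1 and 2 restricted channels of time 0 and in none of time 1. No fold change is given for them. The 5 nerve and Schwann cell markers summed to 7921 to 13250 and 8771 to 14000, and the 3 red cell markers to 567 to 994 and 510 to 628. The red cell markers ALAS2 and SLC4A1 and the leukocyte marker ITGAM were not well above background in any restricted channel. The 3 red cell and 13 leukocyte markers summed here were so in at least 3 of the 4 restricted channels at each time. The 11 muscle fibre markers summed to 729600 to 1135000 at time 0 and 617100 to 675200 at time 1, against 943800 to 1158000 and 1354000 to 2405000 in the growth animals.

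**Figure D4:**
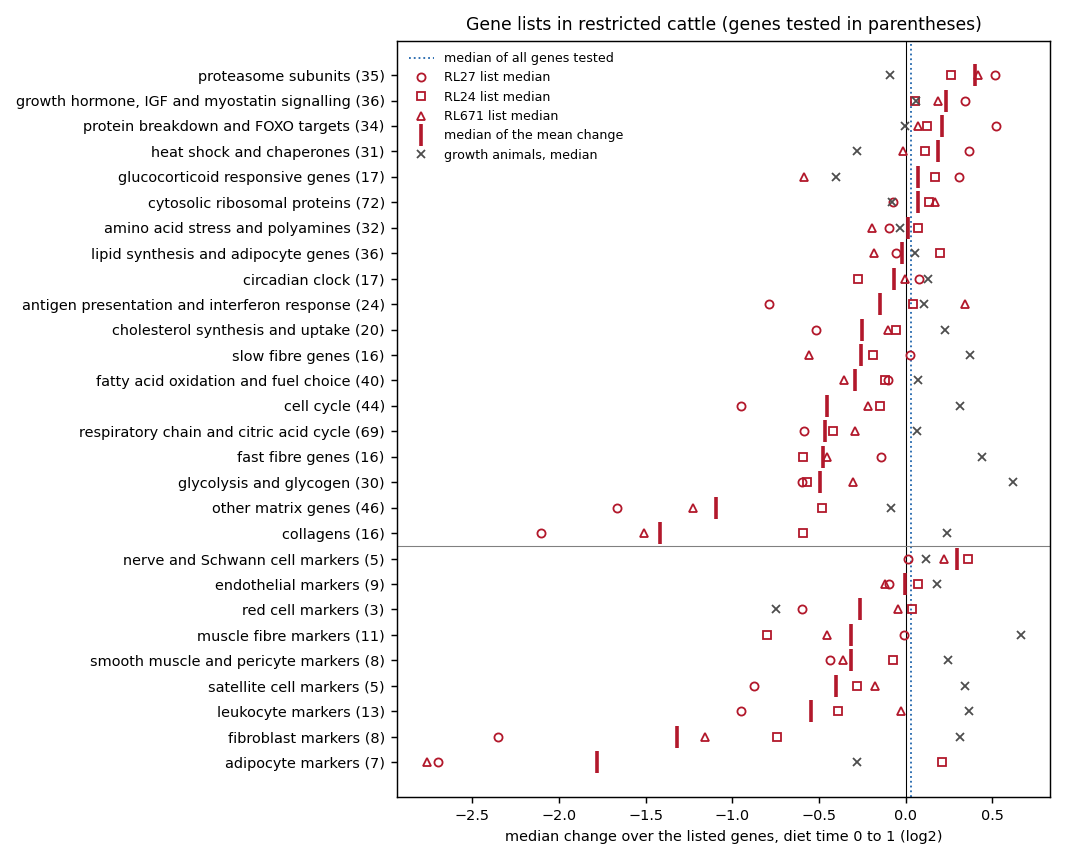
Median change from diet time 0 to 1 on the log2 scale (horizontal axis) over the genes of each list. Red open symbols are the 3 restricted animals, red bars the median of their mean change, crosses the growth animals and the dotted line the median of all 14463 genes. The bars of collagens and other matrix genes lie furthest to the left among the pathways, at -1.42 and -1.09, and RL24 lies apart from the other 2 animals for the fat cell markers.

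The growth animals were on the same arrays, so the difference between the 2 changes is free of what a slide adds to both channels. It asks which genes changed otherwise under weight loss than under growth. Of the 14463 genes, 2893 (20.0%) differed, 1474 more positive (10.2%) and 1419 more negative (9.81%) in the restricted animals (limma, adjusted p under 0.05), and 5243 had an unadjusted p under 0.05. Of the 711 genes that changed in the restricted animals, 545 (76.7%) differed too, all with the same sign, and those 545 are 18.8% of the 2893. Both tests use the same restricted channels. At time 0 the ratio of the diets already differed for 140 of the 14463 genes (limma, adjusted p under 0.05), 66 higher and 74 lower in the restricted animals. The part of such starting gaps in the differences was not tested. The number rested on RL24, which is on 3 of the 8 arrays: without it there was no call at the adjusted threshold (limma) and 1966 genes at an unadjusted p under 0.05. That fit is also a different comparison. Without RL24, both arrays of time 1 carry the restricted sample in Cy5, and at time 0 only the RL322 array does. With the dye term, time 1 is then set against the RL322 array alone, an animal without a pair. Without RL27 there were 40 calls and without RL671 1551, and without the animal as a block 384. Both RL24 arrays of time 1 enter this fit as ratios to different growth animals, and with either of them alone there were 2070 and 1985 calls. With 1 value per animal and time and every animal of both diets as a block, an alternative added after seeing the data, there were 416, of which 404 were among the 2893. In that fit all of the 16 genes named below passed except FN1 and ATF3 (limma adjusted p = 0.0587 and 0.0655). With the channels centred on their median in place of loess and quantile scaling there were 935, of which 609 were more positive and 326 more negative. The 16 genes named below kept their direction in all of these, though they were picked for the size of their difference.

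ACTA1 had the largest negative difference. The ratio of restricted over growth muscle on an array was -0.94 to -0.12 on the 4 arrays of time 0 and -6.40 to -6.02 on those of time 1, and the difference was -5.55 ± 0.20 (limma adjusted p = 0.00012). The growth animals changed by 1.07 ± 0.17. COL3A1 followed, with ratios of -2.19 to 1.36 and -4.99 to -3.40 and a difference of -4.70 ± 0.65 (limma adjusted p = 0.00795). FN1, MYL3, METTL21E, TFRC, CST6 and CCDC80, the last a protein of the matrix, had differences of -4.18 ± 0.70, -3.79 ± 0.39, -3.27 ± 0.28, -3.26 ± 0.53, -3.08 ± 0.42 and -3.04 ± 0.42. Of the 12 largest falls in the restricted animals, COL1A1 was the one whose difference did not pass. It was -3.50 ± 1.28 (limma adjusted p = 0.0951) and turned to 2.10 without RL24, where time 0 rests on the RL322 array alone.

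The 8 largest positive differences were led by FOS and ATF3, transcription factors that cells switch on within a short time of a stimulus. FOS was at 11.02, 12.32 and 10.68 at time 0 and 10.98, 13.82 and 10.81 at time 1 in the restricted animals, which is no change past the threshold (0.53 ± 0.73, limma adjusted p = 0.655, and -0.44 without RL24). In the growth animals FOS stood at 13.34 to 16.62 at time 0 and at 8.65 to 13.76 at time 1. RL322 at time 0, at 11.16, was like the other restricted animals. The growth change was -4.58 ± 0.61 (limma adjusted p = 0.0566). The ratio was -4.84 to -2.57 at time 0 and -0.26 to 2.98 at time 1, a difference of 5.61 ± 0.80 (limma adjusted p = 0.00842). ATF3 had a restricted change of 0.80 ± 0.76, a growth change of -3.66 ± 0.64 and a difference of 4.95 ± 1.03 (limma adjusted p = 0.0192). TNFRSF12A, a receptor of the TNF family, likewise had 0.82 ± 0.25, -2.75 ± 0.21 and 3.51 ± 0.59. For these 3 genes the growth animals moved further than the restricted ones, and at time 0, before the change, the ratio already stood at -4.01 for FOS, -5.15 for ATF3 and -2.90 for TNFRSF12A.

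RRAD, CDKN1A, IER5 and KLHL40, of which IER5 is an immediate early gene and KLHL40 stabilises thin filament proteins, rose past the threshold in the restricted animals and had changes below 0 in the growth animals, which passed for RRAD and IER5. RRAD changed by 2.00 ± 0.13 in the restricted and by -1.97 ± 0.11 in the growth animals, with a difference of 4.12 ± 0.27 (limma adjusted p = 0.0015). IER5 changed by 1.26 ± 0.26 and -2.54 ± 0.22, and KLHL40 by 1.81 ± 0.33 and -1.85 ± 0.28, with differences of 3.89 ± 0.37 and 3.65 ± 0.44 (limma adjusted p = 0.00455 and 0.0062). CISH and CDKN1A had differences of 3.88 ± 0.48 and 4.19 ± 0.82. For 14 of these 16 genes the ratios of the 2 times did not overlap, the exceptions being ATF3 and CDKN1A. The 16 were picked by the difference between these same ratios, so little overlap follows from the choice. The share of all genes without overlap was not counted for the ratios.

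**Figure D5:**
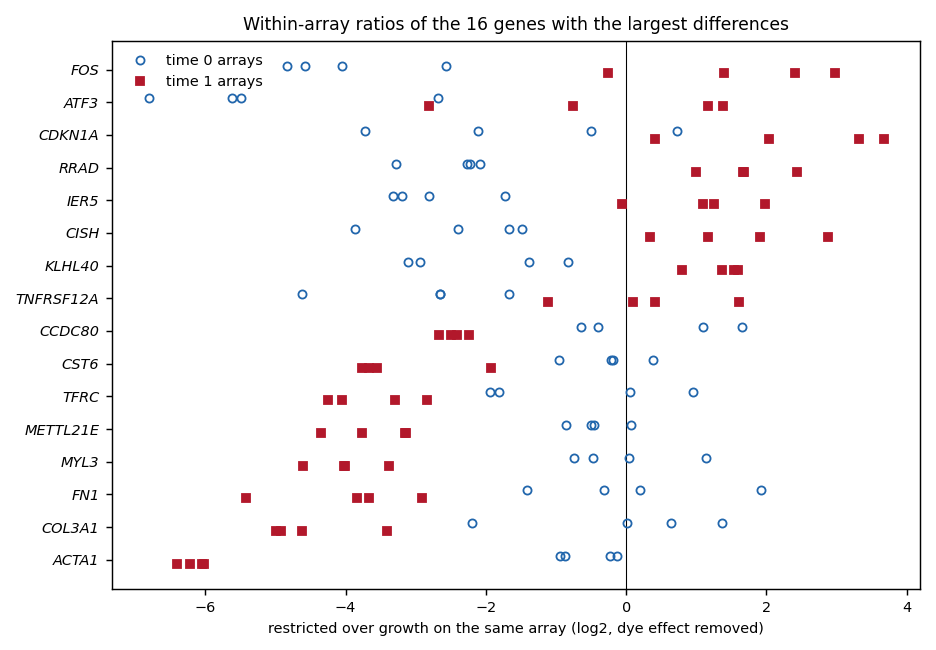
Log2 ratio of the restricted over the growth channel of the same array (horizontal axis, dye effect removed) for the 16 genes with the largest differences. Open circles are the 4 arrays of diet time 0 and filled squares the 4 arrays of diet time 1, 2 of which carry RL24. For ACTA1 the squares lie at -6.40 to -6.02, and for FOS and ATF3 the circles lie at -4.84 to -2.57 and -6.80 to -2.68.

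Counts by list rest on the fit with 2893 calls, in which 10.2% of all genes tested were higher and 9.81% lower. The lists were not counted in the alternative with 416 calls. In glycolysis and glycogen, 17 of 30 genes were lower and 2 higher (median -1.33), and in the cell cycle 28 of 44 were lower and 1 higher (median -0.73). Of the proteasome subunits, 17 of 35 were higher and none lower (median 0.45). Of the muscle fibre markers, 7 of 11 were lower and 1 higher, and of the genes of cholesterol synthesis and uptake 8 of 20 were lower and 2 higher. In 8 of 16 collagens and 20 of 69 genes of the respiratory chain and citric acid cycle the restricted change was lower, and in none and 1 of them higher. Among chaperones 11 of 31 genes were higher and none lower. The growth animals had median changes of 0.62, 0.31 and -0.09 for glycolysis, the cell cycle and proteasome subunits, beside -0.49, -0.45 and 0.40 in the restricted animals.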

How the data were processed

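Muscle RNA of restricted and growth cattle was hybridised in 2 colours on 8 arrays of diet times 0 and 1, and per the labels the tissue was a longissimus biopsy of each animal. The authors scanned the arrays and deposited spot intensity values from Agilent Feature Extraction, version 9.5.1 in the submitters' notes and 9.5.3.1 in the file headers. They also deposited a table of log10 ratios, which equals the log ratio column of the scanner output for all 44407 spots matched on each of the 8 arrays, and it served as an alternative for the difference between diets. The study's own analysis used a mixed model over all arrays, which was not repeated here.

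Mean signals were background corrected (normexp, offset 50), normalised within arrays (loess) and between arrays (Aquantile) and averaged to 1 log2 value per animal and time, 15 values in all (limma 3.58.1, R 4.3.3). Probes needed a signal well above background in 4 or more of the 16 channels, and 15414 of 21475 passed. Probes of a gene were averaged, giving 14463 genes. Names came from gene numbers (9726 probes), transcripts (3485), symbols (391) and the human symbols in the array's descriptions (2739, and 627 that RefSeq's cattle table did not list). A further 304 probes whose names disagreed and 4203 others were left unnamed.

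The restricted change was fitted with animal as a fixed block, dye, and a separate time effect for each diet (lmFit and eBayes, two-sided, Benjamini-Hochberg). The growth animals give the fit its dye effect and share their spread. The pairing comes from the animal codes. The deviations of the 2 samples of an animal from their group means correlated at 0.02, 0.42 and 0.48 for RL27, RL24 and RL671, and at 0.08 to 0.58 for the growth animals. The best correlation with another animal of the same diet was 0.05, 0.12 and -0.17 for RL27, RL24 and RL671. It was above the animal's own value for RL27 alone, also among the growth animals. The difference between the diets was fitted on log2 ratios within arrays with dye and with the restricted animal as a random block (correlation 0.457). In that fit RL24's 2 arrays of time 1 are 2 ratios tied by the block, and the growth animals are not paired across times. In the restricted change they count as 1 sample, and p-values measure the spread between these animals.

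On simulated data of 14463 genes with 200 changed, the restricted fit recovered 69% of changes of log2 size 1 and 97% of size 2, and the difference fit 63% and 97%. False calls numbered 2 and 5. The noise was normal and of the same spread in every animal, so the simulation does not cover calls that rest on single animals. For the difference fit it was drawn with the fit's own block correlation. Each array had its own noise there, RL24's 2 arrays of time 1 included, and growth animals had no effect of their own. Its false calls therefore say nothing of the alternative with every animal as a block. Named are the 12 largest rises and falls, the 8 largest differences in each direction, and of each list the called members and up to 5 with the smallest p. Which samples, lists and tests to use was chosen with earlier results of these data known. For arrays, the number of animals limits the precision.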

Additional observations from a re-analysis of the deposited data

Results flagged for a closer look

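The change from diet time 0 to 1 differed between the restricted and the growth animals, by the test of the difference itself, for the 16 genes named above. The difference was 5.61 for FOS, 4.95 for ATF3, 4.19 for CDKN1A, 4.12 for RRAD, 3.89 for IER5, 3.88 for CISH, 3.65 for KLHL40 and 3.51 for TNFRSF12A. It was -5.55 for ACTA1, -4.70 for COL3A1, -4.18 for FN1, -3.79 for MYL3, -3.27 for METTL21E, -3.26 for TFRC, -3.08 for CST6 and -3.04 for CCDC80, all on the log2 scale.

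RL322 stood apart from the other 3 restricted animals at time 0 for FAH, with 12.64 against 10.61 to 10.88. Among 31 genes looked at this way chance would give such a sample in about 1 gene in 20.

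Diet time 2 lies outside the comparison of times 0 and 1. There, MYOD1 was higher by 3.20 and TNFRSF12A by 2.37 than at time 0 in RL27 and RL24, the restricted animals sampled (limma adjusted p = 0.0433 and 0.0423 in a fit of all 12 diet arrays).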

How the results depend on the processing

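The restricted change gave 1077 calls without the dye term, 8 with the restricted animals alone, 2761 with all 12 diet arrays in the fit and 1917 in a fit of separate channels. Without the replicate block by animal it gave 775, of which 408 were among the 711. Leaving out 1 animal gave 3 to 735. The difference between the diets gave 935 calls with median centring, 384 without the replicate block, 1646 without the dye term, 416 with every animal of both diets as a replicate block (added after seeing the data), and 0 to 2899 when 1 restricted animal was left out. The cause of these moves was not tested, beyond the fewer samples in the fits that leave animals out. Without RL24, the difference between the diets also sets time 1 against the RL322 array of time 0 alone, because of the dyes. Other backgrounds, scalings, filters and probe rules gave 641 to 874 calls for the restricted change and 2078 to 2945 for the difference, and either RL24 array of time 1 alone 2070 and 1985. Of 200 results for single named genes with 4370 alternative values, 3512 kept their side of the threshold, 634 lost it, 213 gained it and 11 turned their direction, all of these for genes not past the threshold. VWF turned to -0.16 without the replicate block, and PMP22 to -0.19 without the dye term and, likewise, with the restricted animals alone. With 1 animal left out, the restricted change ran from -0.44 to 0.81 for FOS, -0.026 to 0.79 for NFKBIA, -0.15 to 0.48 for VWF, -0.71 to 0.069 for HBB, -0.085 to 0.32 for AHSP, -0.92 to 0.46 for PMP22 and -0.90 to 0.0028 for CD34. The difference between the diets for COL1A1 ran from -4.71 to 2.10, the last without RL24, where time 0 rests on the RL322 array alone. Of the 28 list medians, 21 kept their sign under every alternative. The exceptions were lipid synthesis, amino acid stress, glucocorticoid responsive genes, the clock, antigen presentation, endothelial markers and red cell markers. Probes of 1 gene had the same sign for 13 of 14 named genes with several, the exception being SGK1 (-1.16 and 0.15). Dim spots limit MYF5, NCAM1 and KIF15, which were not well above background at time 1.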

Other observations

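At diet time 2, RL27 and RL24 were the restricted animals sampled, each on 2 arrays, and the values below come from a fit of all 12 diet arrays, as changes from time 0 on the log2 scale. ACTA1, which had fallen at time 1, was at 0.82 ± 0.36 (limma adjusted p = 0.312) relative to time 0. The falls of MYL3 and TFRC were followed by -1.19 ± 0.43 and -2.44 ± 0.64, and those of COL1A1 and COL3A1 by -1.52 ± 0.95 and -1.37 ± 0.57. None of these 5 values passed the threshold.

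Among the genes that rose, MYOD1, the muscle lineage factor, stood at 3.20 ± 0.54 (limma adjusted p = 0.0433) and CISH at 3.18 ± 0.66 (limma adjusted p = 0.0782), beside 2.58 and 3.15 at time 1 in the same fit. CHRND, DDO, RAD51B and CDKN1A were at 0.47 ± 0.34, 0.21 ± 0.21, 0.07 ± 0.30 and 0.11 ± 0.46, and none of them passed. RRAD was at 1.16 ± 0.26 (limma adjusted p = 0.0943). With 2 animals these values describe those animals, and the arrays of time 2 lie on a slide of their own. The labels name the weight loss diet at time 2 as well, and whether refeeding had begun by then was not given.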
